A study of Homo sapiens with 2 samples.

Results

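Cells with many counts of mitotic genes were compared with cells with almost none in 1 long-read single-cell library. The cells were chosen by the counts of 10 genes themselves: for each cell barcode a score M was formed by adding the counts of MKI67, TOP2A, CCNB1, CDC20, CENPF, UBE2C, TPX2, PLK1, CCNB2 and BIRC5. Barcodes with at least 2000 counts were kept, which left 1996 of 2462. Of these, 818 had M of 6 or more and are called high-score cells here, 836 had M of 1 or 0 and are called low-score cells, and 342 lay between.

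The library held a mixture of 3 established human ovarian cancer lines, IGROV1, SK-OV-3 and COV504, pooled in equal parts after trypsin treatment, with no drug and no time series. It was sequenced as full-length cDNA on a PromethION nanopore instrument, and counts per transcript were estimated with the Isosceles package, which the study was made to benchmark. A second, Illumina library gave only a barcode list here, and its 2462 barcodes were the same 2462 cells. Both groups therefore came from 1 library and 1 pool, cells are not replicates, and no test between the groups was possible: intervals below cover counting error only and are at 95%.

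The labels tie no barcode to a line. Lines were called from 5 genes, a cell counting as ERBB2/NNMT, RARRES2 or FOLR1/CLDN3 when that gene or pair held at least 75% of the counts of all 5, and they are named by those genes throughout. This gave 555, 464 and 711 cells, and 266 cells had no call. Values of the 3 lines are given in that order. The pool had no unmixed culture of any line, so what each line would show alone was not measured.

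In dividing cells, genes of DNA replication are switched on as cells enter S phase by E2F factors, and genes of the mitotic spindle and kinetochore follow in G2 through the MuvB complex with B-MYB (MYBL2) and FOXM1. The later promoters often carry a TTTGAA element, the cell cycle gene homology region, and CCAAT boxes bound by NF-Y. At anaphase the anaphase-promoting complex, with CDC20 and UBE2C, sends cyclin B for destruction, after which the daughter cells enter G1 or leave the cycle. A count of mRNA shows that these genes are transcribed or their mRNA persists, and does not show a condensed chromosome.

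The score genes chose the cells, so their values are a description. Over all lines MKI67, a coat protein of mitotic chromosomes, was at 355 counts per 1000000 (CPM) in high-score and 3.09 CPM in low-score cells. CENPF, a kinetochore protein, was at 583 and 6.42 CPM, and UBE2C, the ubiquitin-conjugating enzyme of the anaphase-promoting complex, at 465 and 2.85 CPM. TOP2A (DNA topoisomerase) was at 426 and 10.5 CPM, TPX2 (spindle assembly) at 454 and 11.7 CPM, and CCNB1 (cyclin B1) at 301.5 and 11.9 CPM. CCNB2 (cyclin B2) had 181 and 7.61 CPM, CDC20 182 and 2.14 CPM, PLK1, a mitotic kinase, 162 and 0.476 CPM, and BIRC5 (survivin) 273 and 6.66 CPM. Among high-score cells M had a median of 19 and reached 148.

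The threshold cut through a continuous range. The 63 cells with M of 6 had 1154 CPM of the list of mitotic kinases and cyclins, which holds no score gene, and the 46 cells with M of 5 had 1219 CPM. The 266 cells with M of 1 had 685 CPM and the 156 cells with M of 2 had 781 CPM. High-score cells were 41.0% of all (exact binomial interval 38.8 to 43.2%), and replication genes were higher in them too, as given below. The name mitotic is therefore not used for them: the counts mark cells that carry mRNA of S, G2 and M phase genes.

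The lines differed in their share of high-score cells. They were 126 of 555 ERBB2/NNMT cells (22.7%, 19.3 to 26.4%), 347 of 464 RARRES2 cells (74.8%, 70.6 to 78.7%) and 216 of 711 FOLR1/CLDN3 cells (30.4%, 27.0 to 33.9%). Low-score cells numbered 363, 55 and 323. The RARRES2 line thus supplied 42.4% of high-score and 6.58% of low-score cells, and the ERBB2/NNMT line 15.4% and 43.4%. These shares depend on the line call: when 90% of the counts of the 5 genes was required in place of 75%, the RARRES2 line held 25.1% of high-score cells. A pooled comparison of the groups is in part a comparison of these lines, so values within each line lead below.

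**Figure D1:**
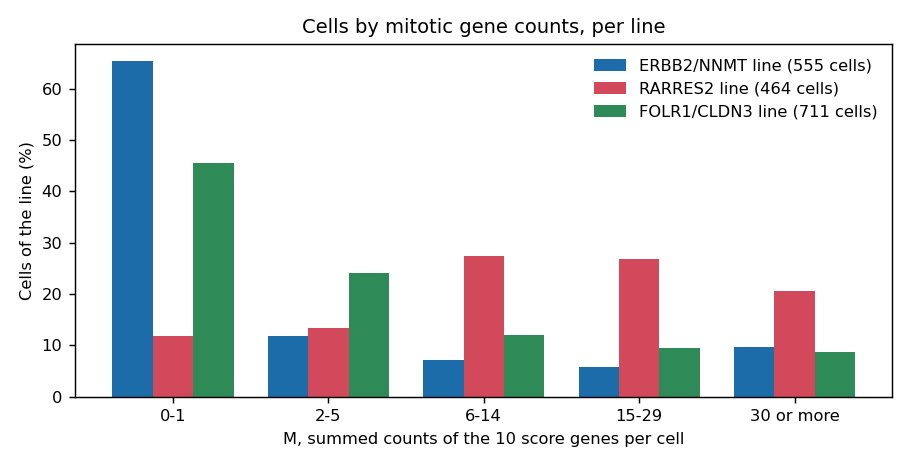
Share of each line's cells (%, vertical axis) in 5 ranges of M, the summed counts of the 10 score genes per cell (horizontal axis); each bar is 1 line. The lowest range holds most ERBB2/NNMT cells (363 of 555) and few RARRES2 cells (55 of 464).

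High-score cells were also sequenced to more counts. Their median was 7195 counts per cell (6914 to 7592) against 4584.5 (4425 to 4760) in low-score cells, and the medians by line were 7682, 7233 and 6888 against 4612, 3970 and 4621. M is a plain sum, so a cell with more counts reaches 6 more easily, and the 2 cannot be told apart for a single cell. With every cell thinned to 2000 counts, the median number of genes was 1203, 1102 and 985 in high-score and 1128, 1030 and 911 in low-score cells. Mitochondrial genes held 2.73, 3.09 and 6.82% of high-score and 2.97, 3.59 and 7.27% of low-score counts, and ribosomal protein genes 11.1, 14.7 and 24.9% against 12.4, 16.8 and 27.9%. Scrublet called 40 high-score cells (4.89%) and 15 low-score cells (1.79%) as doublets. By line these were 3.97, 2.31 and 2.31% of high-score and 0.826, 5.45 and 0.619% of low-score cells, so the RARRES2 line went the other way, and 22 of the 40 and 7 of the 15 were cells with no line call. Of 8 marker genes of other cell types, the blood cell genes CD3E and CD68 had 0 counts in both groups, PTPRC and HBB 2 and 1 in high-score and 0 in low-score cells, the endothelial genes PECAM1 and VWF 4 each in high-score and 7 and 0 in low-score cells, and ACTA2 13 and 6. COL1A1, with 207 and 239 counts, was the only one with enough to be compared. The 8 summed to 35.8 CPM in high-score and 59.9 CPM in low-score cells of the pool, and by line to 126, 26.6 and 8.53 CPM against 111, 36.3 and 5.44 CPM, and their part in any result was not tested.

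Levels below are CPM over the summed counts of a group of cells. Log2 ratios and the medians of gene lists are log2 of (CPM + 10), high-score over low-score, which understates changes of low genes. Plain ratios are CPM over CPM, high-score over low-score, with no amount added and no log, and are followed by their interval. The 2-fold limit was applied to the log2 ratio, and 8817 genes with at least 100 counts were compared. Pooled, 466 genes (5.29%) were at least 2-fold higher and 97 (1.1%) at least 2-fold lower. Within the lines 361 (4.09%), 589 (6.68%) and 236 (2.68%) were higher and 36 (0.408%), 129 (1.46%) and 4 (0.0454%) lower. In all 3 lines at once 160 genes (1.81%) were at least 2-fold higher, and 0 (0%) were at least 2-fold lower. At any size, 2525 genes (28.6%) were higher and 1185 (13.4%) lower in all 3 lines. Counts of list members in all lines, given below, are to be set beside these shares of all genes. The median log2 ratio over all genes was 0.03, 0.12 and 0.08. With 55 low-score RARRES2 cells and 275144 counts, 1 count there is worth 3.63 CPM, so its ratios are the least exact.

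The 160 genes were mostly of known cell cycle groups. 113 of them stood in 1 of the gene lists and 47 in none. Among the 47 were GTSE1, which binds microtubules and p53, DIAPH3, an actin-nucleating formin, HJURP, the chaperone of the centromeric histone CENPA, ESCO2, a cohesin acetyltransferase, the importin KPNA2, the DNA repair genes BRCA2, FANCI and BARD1, the DNA methyltransferase DNMT1, the histone methyltransferase EZH2 and the DNA ligase LIG1. The score genes are in none of these counts.

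**Figure D2:**
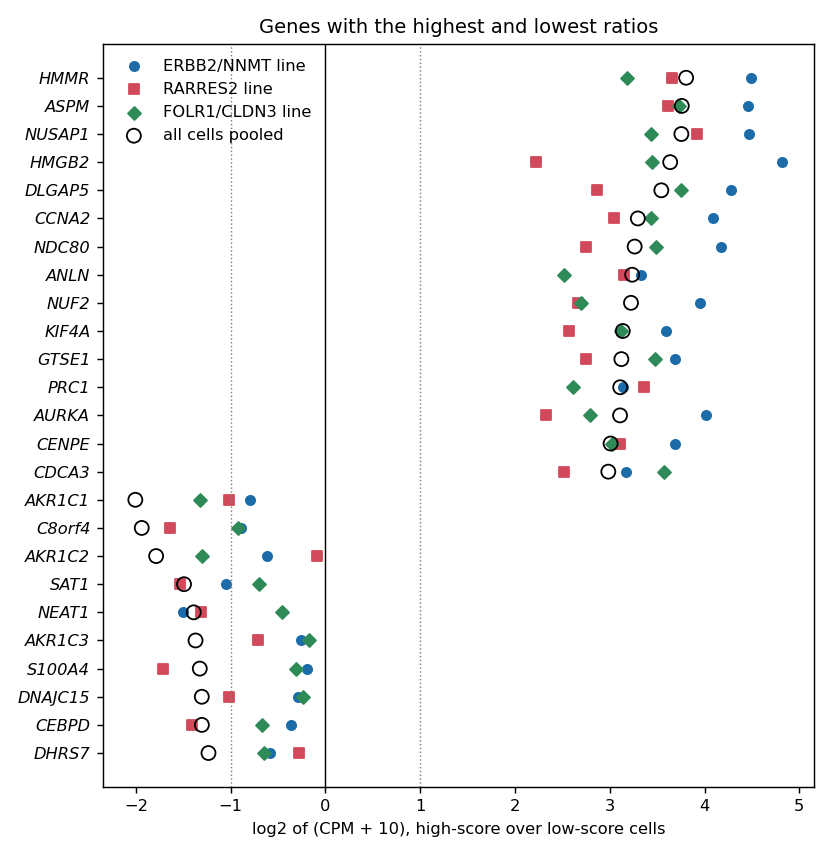
Ratio of high-score to low-score cells (log2 of CPM + 10, horizontal axis) for the 15 genes with the highest and the 10 with the lowest pooled ratio among genes of 1 direction in all 3 lines; filled symbols are the lines and open circles all cells pooled. The high genes lie beyond the 2-fold mark in every line, whereas the low genes lie beyond it in the pool but mostly inside it within lines.

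Of 26 genes of spindle motors and spindle assembly, 24 were compared and 21 were at least 2-fold higher in all 3 lines, beside 1.81% of all genes. The list's median log2 ratio was 2.96, 2.03 and 2.32. HMMR (chr5:163460366-163491945), a protein that anchors spindle poles, had the highest pooled ratio of any gene that is not in the score. It was at 214, 163 and 119 CPM in high-score cells and at 0, 3.63 and 4.23 CPM in low-score cells. In the ERBB2/NNMT line no HMMR count was seen in 363 low-score cells. Set against a floor of 3 counts it was about 127-fold higher there, a value that has no interval and is no bound. ASPM, a spindle pole protein, was at 272, 158 and 260.1 CPM against 2.82, 3.63 and 10.3 CPM. NUSAP1, which bundles spindle microtubules, was at 425, 251 and 294 CPM against 9.60, 7.27 and 18.1 CPM. PRC1, which crosslinks the microtubules of the midzone, was at 377, 355 and 177 CPM against 33.9, 25.4 and 20.5 CPM, plain ratios of 11.1 (8.44 to 14.9), 13.9 (6.75 to 34.8) and 8.60 (6.02 to 12.7). KIF4A, a chromosome-bound kinesin, was at 131, 92.8 and 87.7 CPM against 1.69, 7.27 and 1.21 CPM. In these genes the highest low-score value lay under the lowest high-score value of any line. They are among the 15 genes with the highest pooled ratios, so this follows in part from how they were named. NUMA1, also a spindle pole protein, was the member nearest to no difference, at 59.1, 62.0 and 39.0 CPM against 46.9, 43.6 and 27.2 CPM.

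The start sites of these genes are shown because so many members of the lists share short elements there. The 120 bases before the start are given 5′ to 3′ on the gene's strand (RefSeq, GRCh38.p14), with TTTGAA and CCAAT on either strand in capitals. The windows are chr5:163460512-163460631 for HMMR, chr7:36389742-36389861 for the cytokinesis gene ANLN, chrX:70289984-70290103 for KIF4A, all on the plus strand, and chr15:90994536-90994655 on the minus strand for PRC1. These 4 were chosen after their values were seen.
HMMR: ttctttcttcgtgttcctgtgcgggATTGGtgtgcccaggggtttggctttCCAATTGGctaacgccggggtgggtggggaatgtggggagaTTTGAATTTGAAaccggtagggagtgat
ANLN: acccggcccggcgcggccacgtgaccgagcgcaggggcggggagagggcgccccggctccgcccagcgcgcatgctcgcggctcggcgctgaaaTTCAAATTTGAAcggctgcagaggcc
KIF4A: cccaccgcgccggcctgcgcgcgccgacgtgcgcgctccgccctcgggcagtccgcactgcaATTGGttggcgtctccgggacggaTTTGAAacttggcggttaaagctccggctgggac
PRC1: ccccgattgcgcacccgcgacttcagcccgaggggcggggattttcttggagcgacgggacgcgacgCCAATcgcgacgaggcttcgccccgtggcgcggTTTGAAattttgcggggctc
HMMR has TTTGAA starting 28 and 22 bases before the start, ANLN 26 (minus strand) and 20 bases before, KIF4A 34 and PRC1 20 bases before it. Over the 300-base windows of RefSeq, which end 50 bases after the start, 130 of the 160 genes (81.2%) and 6930 of all 8817 (78.6%) had an entry. TTTGAA on either strand was in 46.2% of the 130 and in 9.67% of all windows. CCAAT was in 63.8 and 37.7%, and both together in 34.6 and 4.26%. The E2F-type octamers TTTCCCGC, TTTGGCGC, TTTGCCGC or TTTCGCGC were in 17.7 and 5.89%. The GC box GGGCGG was in 69.2 and 72.9%, and TATAAA in 6.15 and 5.27%. The groups differed among themselves. Of 59 windows from the spindle, kinetochore, kinase and cytokinesis lists 66.1% held TTTGAA and 8.47% an E2F octamer, whereas of 16 windows from the replication list 6.25% held TTTGAA and 50% an E2F octamer. A match describes letters and is no evidence of a bound site, and among the leading genes CCNA2 had no TTTGAA and CENPE neither it nor CCAAT.

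Kinetochore, centromere and checkpoint genes were higher as a group. Of 30 members 29 were compared, all were higher in each line, and 25 were at least 2-fold higher in all 3, with median log2 ratios of 3.09, 2.05 and 1.90. NDC80, which couples the kinetochore to microtubules, was at 202, 57.02 and 109 CPM in high-score cells and at 1.69, 0 and 0.604 CPM in low-score cells. Its partner NUF2 was at 154, 99.2 and 66.4 CPM against 0.564, 7.27 and 1.81 CPM. CENPE, a kinetochore motor, was at 198, 76.5 and 130.3 CPM against 6.21, 0 and 7.25 CPM. PTTG1 (securin), which holds separase until anaphase, was at 497, 531 and 649 CPM against 29.9, 105 and 153 CPM, so it was present at moderate levels in low-score cells of 2 lines. The least affected members were BUB3, a checkpoint protein, with 1.38, 0.77 and 1.14 on the log2 scale, and SKA2, part of the microtubule-binding Ska complex, with 1.29, 1.04 and 0.74.

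Mitotic kinases, cyclins and their regulators, apart from the score genes, had 20 members, 18 compared and 13 at least 2-fold higher in all lines. CCNA2 (cyclin A2) was at 169.9, 72.6 and 118 CPM against 0.564, 0 and 1.81 CPM. AURKA, the kinase of spindle poles, was at 189, 113 and 122 CPM against 2.26, 14.54 and 9.06 CPM. CDK1, the kinase partner of cyclin B, had log2 ratios of 3.33, 2.26 and 2.37. CKS2, a small CDK-binding protein, was at 872, 421 and 894 CPM against 55.9, 72.7 and 404 CPM: the FOLR1/CLDN3 line had more CKS2 in low-score cells than the others, and its plain ratio there was 2.22 (2.02 to 2.43) against 15.6 (12.7 to 19.4) in the ERBB2/NNMT line. The phosphatase CDC25B, which activates CDK1, was at 520.4, 204 and 101 CPM against 334, 174 and 33.2 CPM, a difference of at least 2-fold in the FOLR1/CLDN3 line alone.

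Cytokinesis genes had 13 of 14 members compared and 10 at least 2-fold higher in all lines, with medians of 2.91, 2.25 and 2.26. ANLN (anillin), a scaffold of the contractile ring, was at 141, 175 and 71.3 CPM against 5.08, 10.9 and 4.23 CPM. ECT2, the exchange factor that activates RhoA at the cell equator, was at 227, 140.3 and 164 CPM against 21.4, 32.7 and 45.3 CPM. CHMP2A, a subunit of the ESCRT-III complex that cuts the midbody and serves other membranes, was the 1 member lower in all 3 lines, at 310.3, 529 and 298 CPM against 387, 887 and 317 CPM.

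Subunits and partners of the anaphase-promoting complex were mostly less than 2-fold apart. Of 16 members 13 were compared, and only UBE2S, which extends ubiquitin chains for the complex, was at least 2-fold higher in any line. UBE2S was at 272, 309.9 and 128 CPM against 28.2, 50.9 and 11.5 CPM, higher in all 3 lines. ANAPC11, its RING subunit, was at 726, 796 and 439.8 CPM against 584, 803 and 366 CPM, and ANAPC16 at 222, 128 and 105 CPM against 195, 87.2 and 114 CPM. The list's median log2 ratio was 0.24, 0.32 and 0.26, beside 0.03, 0.12 and 0.08 over all genes.

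Within the condensin and cohesin list 8 of 17 members, all compared, were at least 2-fold higher in all lines: the condensin genes SMC2, SMC4, NCAPD2, NCAPD3, NCAPG, NCAPG2 and NCAPH, and CDCA5 (sororin), which protects cohesin. SMC4 was at 641, 339 and 203 CPM against 80.7, 69.1 and 42.3 CPM. NCAPG was at 210.04, 37.5 and 81.0 CPM against 2.26, 0 and 3.02 CPM. The cohesin ring gene SMC3 was at 358, 168 and 361 CPM against 203, 87.2 and 198 CPM, less than 2-fold higher in each line, and WAPL, which releases cohesin, was at 82.3, 43.2 and 54.8 CPM against 86.4, 39.98 and 50.1 CPM.

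Chromatin proteins had 5 of 21 members at least 2-fold higher in all lines: HMGB2, HMGN2, ANP32E, H2AFZ and H2AFX. HMGB2, a DNA-bending protein, was at 814, 493 and 686 CPM against 19.2, 98.1 and 53.8 CPM. Its relative HMGB1 was at 2183, 1884 and 1768 CPM against 779.5, 974 and 984 CPM, plain ratios of 2.80 (2.61 to 3), 1.93 (1.71 to 2.20) and 1.80 (1.69 to 1.91). HMGB2 thus differed by far more than HMGB1 in every line. The replacement histone gene H3F3A was at 1079, 771 and 1160.4 CPM against 1138, 916 and 1156 CPM. Replication-dependent histone genes were taken by symbol alone, and whether each member depends on replication was not checked. Of 86 such genes 10 had enough counts, with medians of 1.32, 0.10 and 0.56. Of the 10, 5 were higher in all lines, beside 28.6% of all genes, and 1 at least 2-fold so. In the RARRES2 line HIST1H2BD and HIST2H2AA4 were at least 2-fold lower, at -1.23 and -1.38 on the log2 scale. The 1 member beyond 2-fold in all lines, HIST1H4C, a histone H4 gene, was at 2817, 909 and 1384 CPM against 623, 149 and 241 CPM.

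Tubulin genes did not move as 1 group. Of 14 genes compared 4 were at least 2-fold higher in all lines, namely TUBA1B and TUBB4B, the gamma-tubulin gene TUBG1 of the spindle poles and STMN1 (stathmin), which binds free tubulin. TUBA1B was at 2222, 2739 and 1648 CPM against 282, 796 and 517 CPM. TUBB4B was at 885, 1203 and 969 CPM against 166, 393 and 347 CPM. TUBA1A, whose protein is nearly the same as that of TUBA1B, was at 375, 110.5 and 94.4 CPM against 365, 185 and 132 CPM, plain ratios of 1.03 (0.899 to 1.17), 0.596 (0.442 to 0.818) and 0.717 (0.580 to 0.885). Reads of such close copies can be split between them by the counting, which was not tested.

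Nuclear envelope genes had 3 of 15 members at least 2-fold higher in all lines, the B-type lamins LMNB1 and LMNB2 and TMPO, a lamin-binding protein. TMPO was at 370.5, 215 and 229.6 CPM against 91.4, 69.1 and 64.7 CPM. The A-type lamin gene LMNA was at 424, 620.5 and 478 CPM against 419.9, 422 and 426 CPM.

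Replication and G1/S genes were higher as well. Of 42 members 37 were compared, 35 were higher in all lines and 19 at least 2-fold so, with medians of 1.94, 1.15 and 1.08. TK1 (thymidine kinase) was at 211, 503 and 133 CPM against 19.8, 153 and 29 CPM. MCM3, MCM4 and MCM7 of the replicative helicase, FEN1, TYMS, RRM1 and CLSPN were among the 19. PCNA, the sliding clamp, had log2 ratios of 1.93, 0.93 and 1.46. The exceptions were CDC6, a licensing factor, with log2 ratios of 3.09, -0.09 and 1.51, and MCM5, with 2.07, 1.43 and -0.02. Of the G2/M transcription regulators, 2 of 12 compared were at least 2-fold higher in all lines. MYBL2 was at 169.9, 99.2 and 81.6 CPM against 9.60, 3.63 and 9.06 CPM, and FOXM1 at 50.7, 94.9 and 59.1 CPM against 1.13, 32.7 and 1.81 CPM. NFYB, a subunit of the CCAAT-binding factor, was at 83.4, 46.7 and 51.8 CPM against 56.4, 36.3 and 26.6 CPM.

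**Figure D3:**
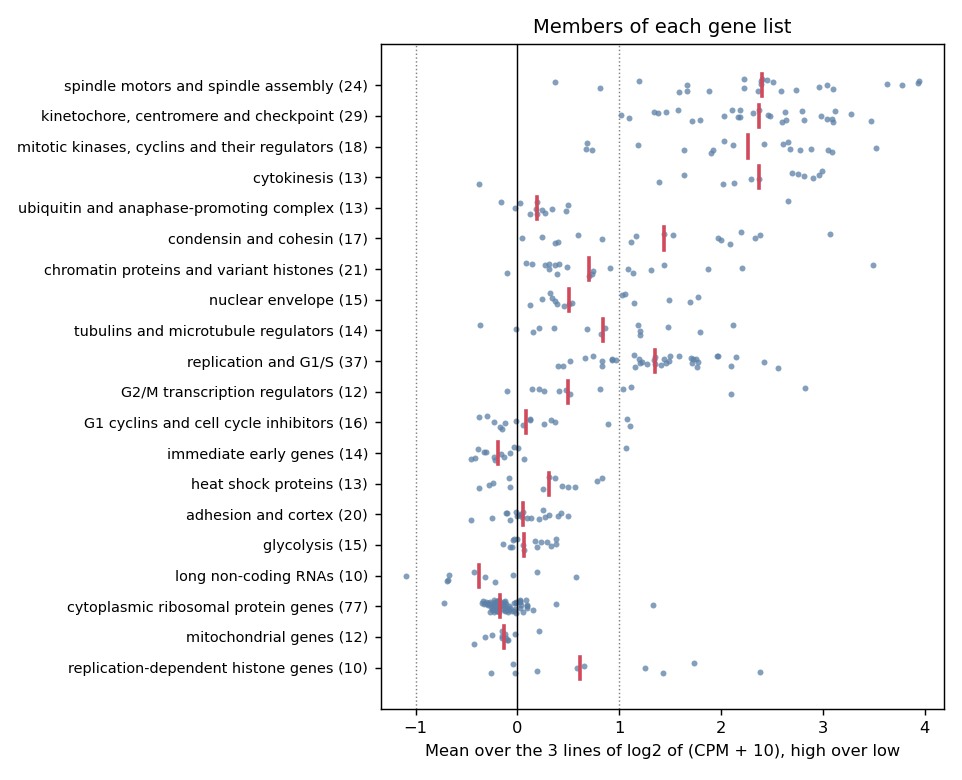
Each point is a gene (mean over the 3 lines of the log2 ratio of CPM + 10, horizontal axis), each row a gene list with its number of genes compared, and each red bar the list's median; points are spread vertically only to be seen. Spindle, kinetochore, kinase and cytokinesis genes lie mostly beyond the 2-fold mark, and ribosomal protein and glycolysis genes around 0.

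Along M the replication genes were highest at another range than the spindle genes. M is itself a sum of mitotic genes, and the 160 genes were chosen by M of 6 or more against 1 or 0. A highest level of spindle, kinetochore and cytokinesis genes at high M is therefore in part built into the ranges. Cells were placed in 5 ranges of M, 0 to 1, 2 to 5, 6 to 14, 15 to 29, and 30 or more. Summed spindle genes went from 839 to 1109.9, 2088, 3194 and 5808 CPM in the ERBB2/NNMT line, and were highest in the last range in all lines (4926 and 4643 CPM in the others). Summed replication genes went through 584, 1385, 3924, 4524 and 2862 CPM in the ERBB2/NNMT line. In the RARRES2 line they were at 1218, 3157, 3851, 3603 and 2685 CPM, and in the FOLR1/CLDN3 line at 1270.0, 2496, 3752, 3246 and 2676 CPM. Their highest level thus lay at a middle range of M in each line. Of the 160 genes, 73 were highest at M of 30 or more in all 3 lines and 24 in a range from 6 to 29 in all 3. The first kind included 19 of 21 spindle genes, 10 of 10 cytokinesis genes, 15 of 25 kinetochore genes and 9 of 13 kinase and cyclin genes, and 0 of 19 replication genes. The other kind included 14 of the 19 replication genes: MCM3, MCM4, MCM7, MCM10, GINS2, CDC45, FEN1, RFC3, RFC4, RRM1, CLSPN, PRIM1, ATAD2 and DUT. HMMR went from 0 to 15.9, 46.6, 126 and 352 CPM in the ERBB2/NNMT line, whereas MCM3 went from 22.6 to 81.9, 175, 131 and 73.8 CPM. HIST1H4C, made in S phase, was highest at M of 15 to 29 in each line, at 3909, 1110 and 1653 CPM. Median counts per cell also differed along M, from 4612, 3970 and 4621 in the lowest range to 8541.5, 10652 and 9038.5 in the highest, and their part in these orders was not tested.

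**Figure D4:**
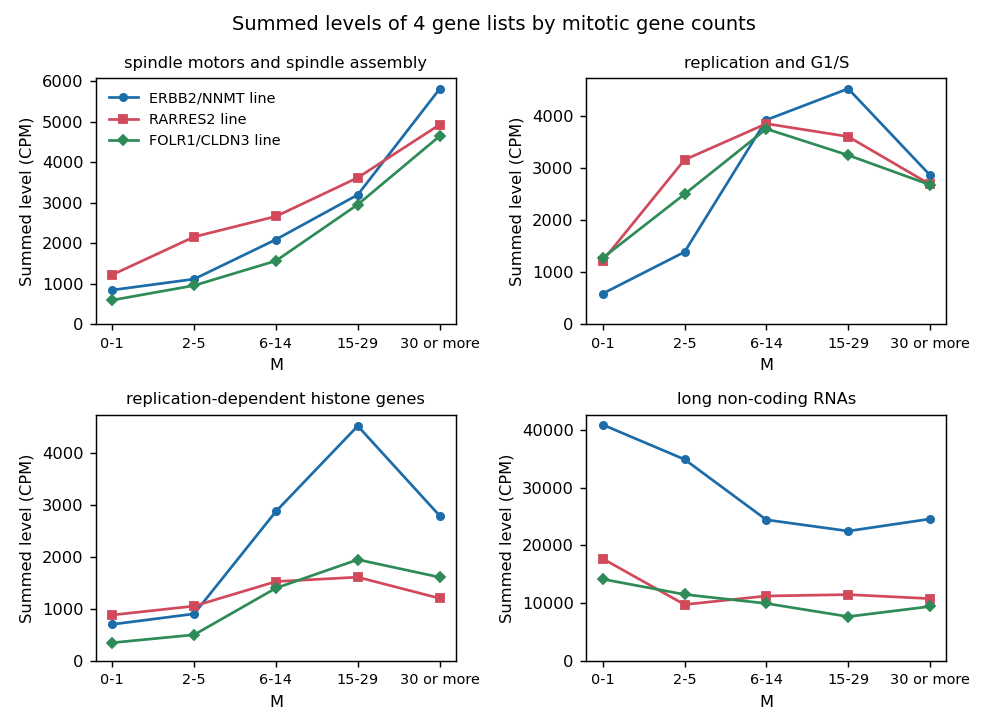
Summed level (CPM, vertical axes from 0) of 4 gene lists in 5 ranges of M (horizontal axes) for the 3 lines, without error bars. Spindle genes are highest at M of 30 or more in each line, replication genes at 6 to 14 or 15 to 29, and the long non-coding RNAs are highest at M of 0 to 1.

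Genes lower in high-score cells were fewer and their ratios smaller. Of the 97 genes lower in the pool, 43 were lower in each line and 0 were at least 2-fold lower in all 3. MALAT1, a nuclear long non-coding RNA, was at 21921, 9526 and 6993 CPM in high-score and 36597, 14581 and 11617 CPM in low-score cells, plain ratios of 0.599 (0.590 to 0.608), 0.653 (0.632 to 0.675) and 0.602 (0.588 to 0.616). NEAT1, the scaffold RNA of paraspeckles, was at 1117, 747 and 524 CPM against 3173, 1872 and 722 CPM, and along M in the ERBB2/NNMT line its level was 3173, 2643, 1304, 1069 and 1036 CPM. Of 10 long non-coding RNAs compared, 6 were lower in all lines, beside 13.4% of all genes: MALAT1, NEAT1 and KCNQ1OT1, which act in the nucleus, the snoRNA host transcripts GAS5 and SNHG8, and NORAD, which is mainly cytoplasmic. SAT1, which breaks down polyamines, was at 257, 56.3 and 515 CPM against 544, 182 and 839.8 CPM. AKR1C1, an aldo-keto reductase of steroids, was at 261, 3.90 and 49.3 CPM against 459, 18.2 and 139 CPM. NREP was at 27.4, 13.1 and 20.1 CPM against 80.7, 90.9 and 31.4 CPM. MXD4, a partner of MAX that opposes MYC, was at 19, 8.86 and 24.4 CPM against 40.6, 39.98 and 54.4 CPM. The transcription factor CEBPD was at 117, 7.44 and 18.3 CPM against 154, 36.3 and 35.0 CPM. All of these were lower in each line, and only in the RARRES2 line, where low-score cells are fewest, did most of them pass 2-fold. NEAT1, SAT1 and NREP also passed it in the ERBB2/NNMT line, and AKR1C1 in the FOLR1/CLDN3 line. S100A4, a calcium-binding protein, was at 6743 CPM in low-score cells of the ERBB2/NNMT line. In the RARRES2 line it was at 77.6 CPM in high-score and 276 CPM in low-score cells. ERBB2 was there at 16.3 and 32.7 CPM, and NNMT at 52.1 and 72.7 CPM. Both are line call genes, so the call itself limits their counts in RARRES2 cells and their values are a description only. The part of other lines' RNA in these values was not tested.

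Ribosomal protein genes were lower by a small step. Of 81 members 77 were compared, and 53 were lower and 3 higher in all lines, beside 13.4 and 28.6% of all genes. The median log2 ratio was -0.16, -0.15 and -0.14. RPL13 was at 3702, 6605 and 8198 CPM against 4127, 7727 and 9470.5 CPM. The only member at least 2-fold higher in all lines was RPL39L, a copy of RPL39. Of 12 mitochondrially encoded genes compared, 9 were lower and 0 higher in all lines, beside the same shares of all genes. Their medians were -0.13, -0.22 and -0.03. Since CPM shares 1 total, a group that takes more counts lowers the rest. The median log2 ratio over all genes was 0.03, 0.12 and 0.08. The part of the shared total in the small shift of these abundant genes was not tested.

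G1, immediate early, heat shock, adhesion and glycolysis genes had 0 members at least 2-fold higher in all lines, which for lists of this size cannot be told apart from the 1.81% of all genes. At any size 28.6% of all genes were higher and 13.4% lower in all lines. Among 16 G1 cyclins and inhibitors 5 were higher and 2 lower in all lines. CCND1 (cyclin D1) was at 429, 957 and 665 CPM against 469, 552 and 811 CPM, so the lines differed in direction. CDKN1A (p21) had log2 ratios of 0.59, 0.33 and -0.14. Of 14 immediate early genes 4 were lower in all lines and 0 higher. FOSL1, an AP-1 subunit, was at 144, 200.5 and 10.4 CPM against 43.5, 47.2 and 13.3 CPM, higher in the first 2 lines only. Among 13 heat shock genes 5 were higher and 2 lower in all lines, and among 20 adhesion and cortex genes 5 and 4. HSP90AA1 was at 2164, 2189 and 1709 CPM against 1377, 1098 and 935 CPM, and HSPB1 at 384, 206 and 320.4 CPM against 579, 233 and 312 CPM. Of 15 glycolysis genes 5 were higher and 1 was lower in all lines, and GAPDH was at 2422, 3866 and 3390.4 CPM against 2696, 4329 and 3682 CPM.

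Some pooled differences were absent within lines. CAV1, the main protein of caveolae, was 2.58-fold higher in the pool (2.49 to 2.67) but was at 1194, 4221 and 129.7 CPM in high-score and 1232, 3907 and 121 CPM in low-score cells. CDK6 was 3.14-fold higher in the pool (2.58 to 3.86) and was at 31.7, 155 and 3.65 CPM against 33.3, 164 and 1.21 CPM. The RARRES2 line had the highest level of both genes. Of the 466 genes higher in the pool, 333 were higher in each line and 154 at least 2-fold so in each.

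Transcript use was compared as the share of a gene's counts given to each transcript. Of 929 genes with enough counts in all lines, 2 (0.215%) had a transcript whose share differed by at least 10 percentage points in the same direction in all 3 lines, DUT and TPM3, and 17 (1.83%) by at least 5 points. Within a single line 41 (4.41%), 97 (10.4%) and 25 (2.69%) genes differed by at least 10 points. The transcript with most counts had a higher share in high-score cells of all 3 lines in 227 of the 929 genes and a lower one in 78. Genes almost without counts in low-score cells, such as HMMR, could not be compared in this way.

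DUT encodes dUTPase, which breaks down dUTP so that uracil is not built into DNA. It makes a nuclear and a mitochondrial form from separate first exons, and the nuclear form is known to go with proliferation. On chromosome 15 (GRCh38, GENCODE release 29, plus strand) transcript ENST00000455976 of the nuclear form starts with an exon at chr15:48332103-48332406, has 6 exons and 492 coding bases. Transcript ENST00000331200 of the mitochondrial form starts upstream at chr15:48331423-48331795, has 7 exons and 756 coding bases. The coding part of each first exon is shown, since it is what sets the 2 forms apart, at chr15:48332252-48332406 and chr15:48331516-48331795. Capitals mark bases that are in the coding part of that transcript and not of the other: 16 bases of the first and all 280 of the second.
ENST00000455976: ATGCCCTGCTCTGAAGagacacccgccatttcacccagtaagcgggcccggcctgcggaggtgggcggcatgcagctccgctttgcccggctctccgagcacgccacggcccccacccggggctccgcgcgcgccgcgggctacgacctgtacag
ENST00000331200: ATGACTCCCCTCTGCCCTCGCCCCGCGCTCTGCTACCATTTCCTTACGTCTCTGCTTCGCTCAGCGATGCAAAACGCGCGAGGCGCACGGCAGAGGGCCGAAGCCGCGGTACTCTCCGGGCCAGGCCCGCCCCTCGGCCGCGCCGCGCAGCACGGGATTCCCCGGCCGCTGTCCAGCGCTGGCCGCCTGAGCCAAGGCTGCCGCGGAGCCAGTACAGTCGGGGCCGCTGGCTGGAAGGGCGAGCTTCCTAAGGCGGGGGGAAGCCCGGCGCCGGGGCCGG
The nuclear-form transcript held 84.0% (80.1 to 87.2%) of DUT counts in high-score and 26.3% (19.8 to 33.4%) in low-score cells of the ERBB2/NNMT line. In the RARRES2 line it held 83.2% (81.2 to 85.2%) and 49.7% (36.1 to 62.3%), and in the FOLR1/CLDN3 line 89.6% (86.8 to 92.1%) and 67.5% (58.9 to 75.6%). The intervals were apart in every line, and the mean difference was 37.8 points. The level of this transcript was 391, 403 and 296 CPM in high-score and 25.6, 110.3 and 53.0 CPM in low-score cells. The mitochondrial-form transcript stayed at 47.5, 58.3 and 25.1 CPM against 47.2, 72.0 and 20.5 CPM, with overlapping intervals in each line. Another DUT transcript, ENST00000558813, held 5.08, 3.73 and 2.28% of DUT counts in high-score and 22.3, 17.2 and 6.16% in low-score cells. Its level was 23.7, 18.1 and 7.53 CPM against 21.7, 38.1 and 4.84 CPM, also with overlapping intervals. Along M the nuclear form was already at 59.4, 82.4 and 81.4% of DUT counts in cells with M of 2 to 5, and its level was highest at M of 15 to 29, 6 to 14 and 6 to 14 in the 3 lines. Of the counts of these 2 transcripts 43.0 and 55.9% came from cells where the estimate was a whole number (within 1e-06); the rest were split between transcripts by the estimate.

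**Figure D5:**
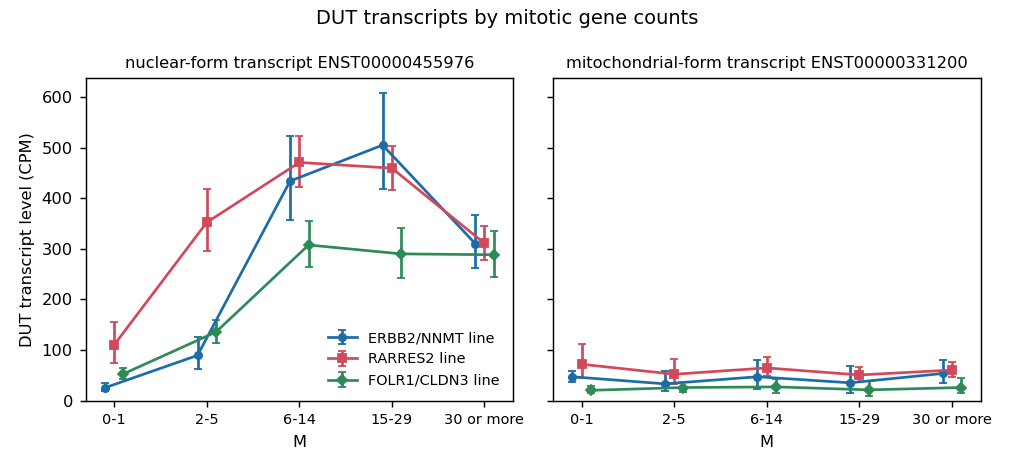
Level of the nuclear-form and the mitochondrial-form DUT transcript (CPM, vertical axis from 0) in 5 ranges of M (horizontal axis) for the 3 lines, with exact 95% Poisson intervals as bars. The nuclear form is at 25.6 to 110.3 CPM at M of 0 to 1 and at 288 CPM or more from M of 6, while the mitochondrial form stays between 20.5 and 72.0 CPM.

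TPM3, a tropomyosin of actin filaments, was the other gene. Its transcript ENST00000368533 held 74.0, 83.6 and 71.9% of TPM3 counts in high-score and 60.9, 72.5 and 60.1% in low-score cells, with intervals apart in each line. ENST00000611659, with the next most counts, held 13.8, 9.60 and 12.4% against 17.5, 9.45 and 15.8%, with overlapping intervals. ENST00000328159 held 1.37, 1.53 and 4.18% against 5.62, 6.77 and 5.98%, with intervals apart in the ERBB2/NNMT and RARRES2 lines. Only 2.69% of the counts of ENST00000368533 were whole-number estimates, so its share rests on how the estimate split reads. When low-score cells were weighted to the depth of high-score cells the mean difference was 4.53 points against 11.99, whereas for DUT it was 47.7 against 37.8.

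LAMP2, a protein of the lysosomal membrane, had the mean difference next to that of DUT, 15.1 points. Its transcripts ENST00000371335 and ENST00000200639 share 8 exons and differ in the ninth, which encodes the membrane anchor and the cytosolic tail. The coding parts of those exons lie on the minus strand at chrX:120439157-120439293 and chrX:120431326-120431462. Both are 137 bases long, 77 of which are identical (56.2%), and capitals mark the bases that differ.
ENST00000371335: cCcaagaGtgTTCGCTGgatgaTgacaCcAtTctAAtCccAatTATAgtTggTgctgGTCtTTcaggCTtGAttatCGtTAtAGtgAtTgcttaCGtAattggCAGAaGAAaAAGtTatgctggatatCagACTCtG
ENST00000200639: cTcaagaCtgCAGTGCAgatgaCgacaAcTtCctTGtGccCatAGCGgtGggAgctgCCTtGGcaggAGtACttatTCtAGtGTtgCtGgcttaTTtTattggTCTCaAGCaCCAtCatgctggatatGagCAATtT
ENST00000371335 held 64.3, 39.1 and 28.4% of LAMP2 counts in high-score and 43.5, 30.2 and 12.6% in low-score cells. It was higher in each line, but the gene had only 32 to 198 counts per group and the intervals overlapped in each line.

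Other genes with large mean differences were SON, NDUFC1, CAPRIN1, XRCC6 and ISOC2, at 12.8, 12.3, 10.9, 10.7 and 10.6 points. XRCC6, the Ku70 gene of DNA end joining, had 68.5, 71.5 and 66.7% of ENST00000360079 against 56.5, 60.6 and 57.7%. NDUFC1, a subunit of respiratory complex I, had 39.3, 40.8 and 30.5% of ENST00000539387 against 24.0, 28.9 and 20.8%. SON, a splicing factor, had 67.0, 58.3 and 51.4% of ENST00000356577 against 50, 40.8 and 47.5%. The intervals of XRCC6 and SON were apart in the ERBB2/NNMT line and overlapped in the others, and those of NDUFC1 overlapped in the RARRES2 line. With low-score cells weighted by depth the mean difference of SON was 5.76 points. For SON, NDUFC1 and XRCC6 only 7.36, 6.07 and 10.8% of these counts were whole-number estimates. Of a list of 34 genes with known transcript variants 10 had enough counts, and 4 had a mean difference of at least 5 points, beside 11.7% of the 929 genes: TPM3, TUBB, STMN1 and LMNA. TUBB had 92.7, 84.7 and 95% of ENST00000327892 against 75.9, 82.0 and 88.7%, with intervals that overlapped in the RARRES2 line. With low-score cells weighted by depth its mean difference was 3.63 against 8.58 points, and that of STMN1 1.04 against 5.91 points. The lamin C transcript ENST00000368301 of LMNA held 26.2, 30.8 and 39.2% against 20.2, 27.3 and 33.1%, with overlapping intervals.

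Among high-score cells alone, some genes of that list used different transcripts in different lines. For each gene the transcript whose share ranged most between lines was taken. Of 30 of its genes with enough counts, 5 had a share that ranged over at least 20 points between lines, ECT2, TPM1, AURKB, MYL6 and AURKA, beside 127 of all 2094 genes with as many counts (6.06%), and with so few members nothing is read from the difference. ECT2 transcript ENST00000392692 held 62.2% (55.5 to 68.8%), 25.2% (21.1 to 29.8%) and 79.1% (73.8 to 83.9%) of ECT2 counts. AURKA transcript ENST00000347343 held 32.9% (26.1 to 40.4%), 12.8% (9.35 to 17.0%) and 11.2% (6.99 to 16.1%). AURKB, the kinase of the chromosomal passenger complex, had 63.0, 56.7 and 78.8% of ENST00000585124. Of the 7 score genes with enough counts MKI67 ranged most, by 10.6 points, with 23.2, 28.3 and 17.8% of ENST00000368653.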

How the data were processed

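One PromethION library of a pool of IGROV1, SK-OV-3 and COV504 cells was analysed. The deposited values are estimated counts per transcript and barcode, made by the authors with Isosceles per the series' design text, and they sum to whole numbers per gene entry and barcode. Cell Ranger 6.0.1 and GRCh38 are named in the submitters' processing notes. The aligner and annotation release were not given in the sources used here. Whether copies of 1 molecule were merged is not stated either, so counts may not all be separate molecules.

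From these files counts were summed per gene name (55497 names, of which 712 entries join several genes) and per barcode. High-score, low-score and line groups were set by the rules in the text. CPM used the summed counts of a group, with 10 CPM added before log2, a minimum of 100 counts and a 2-fold limit. Poisson intervals were used for levels, exact binomial (Clopper-Pearson) intervals for shares and conditional binomial intervals for ratios, all exact and at 95%, covering counting error only. Total counts were 6444342 in high-score and 4205380 in low-score cells, and a level of 0 was set against a floor of 3 counts per group of cells. Transcript shares needed 30 counts of the gene in every group and line. Doublets were called with Scrublet (expected rate 0.02, 77 cells) and kept, with an alternative without them. Transcript sequences and structures are from GENCODE release 29, and promoters from RefSeq on GRCh38.p14. Tools were scanpy 1.11.5, numpy 2.4.6, scipy 1.17.1, pandas 2.3.3 and matplotlib 3.10.9, and the steps were tested on simulated data.

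Genes were named by a rule: the score genes, the 15 highest and 10 lowest pooled ratios of 1 direction in all lines, the 3 members with most counts and the extreme members of each list, and, for transcripts, the 8 largest mean differences and listed genes above 5 points. Other genes that the text names were chosen after their values were seen. The members and lists were chosen with earlier results of these data known, so no list is independent evidence.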

Additional observations from a re-analysis of the deposited data

How the results depend on the processing

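No paired analysis was possible because both groups of cells come from 1 library and no test was made. The lists' and lines' directions in the text were recomputed under the other choices below, and those that leave out a line or take medians within lines were chosen after seeing the data. Of 553 values over settings that answer a comparison, 484 moved by less than the limits set, 67 moved more and 2 reversed.

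With 1 CPM added in place of 10, 754 genes were at least 2-fold higher and 282 lower (72.8% of calls higher, against 82.8%), with 253 higher and 6 lower in all 3 lines, and with 50 CPM 127 and 27, with 50 higher in all 3. List medians (spindle, kinetochore, kinases, cytokinesis, replication) were 3.87, 3.54, 3.36, 3.82 and 1.83 with 1 CPM and 1.11, 1.16, 0.98, 1.12 and 0.59 with 50 CPM. A limit of 1.5-fold gave 1109 higher and 514 lower, 323 and 10 in all 3 lines (68.3% higher); 3-fold gave 161 and 10, with 78 in all 3 (94.2% higher). A minimum of 500 counts gave 230 higher and 56 lower genes and 97 in all 3, and a G2/M regulator median of 1.43. With the mean over lines in place of the pool, 276 genes were higher and 10 lower (96.5% higher). Single genes were recomputed for a set of 114, which left out ISG15 and IFI6, named below. Of the 114 genes 15 then changed sign. HSPA1A and RARRES2, to -0.0825 and -0.16, had been at least 2-fold apart in the pool. The others of the 15 had pooled log2 ratios of at most 0.66 in size. Genes at least 2-fold lower in all 3 lines numbered 2 with M of at least 10, and 1 each with cells thinned to 2000 counts, with M scaled to 5000 counts, and with mitochondrial and ribosomal protein genes out of the total.

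With M of 0 as the low-score group the replication median was 1.51, the ribosomal protein median -0.0943 and the low-score cells' genes at 2000 counts 1053. Within the ERBB2/NNMT line the spindle, kinetochore, kinase, cytokinesis and replication medians were 2.96, 3.09, 2.78, 2.91 and 1.94, and that of heat shock proteins reversed to -0.17. In the RARRES2 line the histone median was 0.10. In the FOLR1/CLDN3 line the kinetochore median was 1.90, the mitochondrial one -0.0303, and that of adhesion genes reversed to -0.0141.

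High-score cells were 46.0% of cells with M of at least 4, 32.8% with at least 10, 47.5% with a depth of 4000 counts and 37.1% with M scaled to 5000 counts. Their median counts were 7720 with M of at least 10, 7761 at a depth of 4000 and 6884 with scaled M. Low-score medians were 4309 at a depth of 1000, 5539 at 4000 and 5029 with scaled M. A line call at 60% put 48.8% of high-score cells in the RARRES2 line, and one at 90% put 25.1% there and 10.8% in the ERBB2/NNMT line. Genes with a shared transcript difference numbered 1 with a minimum of 100 counts, 1 with whole-number estimates only, 1 with M of 0, 4 with M of at least 10, 17 at 5 points and 1 at 20 points. Pooled over lines there were 462 among 6397 genes, without the RARRES2 line 33 among 2901, and without the FOLR1/CLDN3 line 12 among 967. The causes of these shifts were not tested. The 55 low-score RARRES2 cells limit every statement on all 3 lines.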

Other observations

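In some genes the pooled ratio and the lines pointed in opposite directions. With a pooled log2 ratio beyond 0.2 in size, 87 genes were higher in pooled high-score cells and lower in each line, and 104 were the other way round. The genes named here were chosen after their values were seen. ISG15, a ubiquitin-like protein induced by interferon, was at 536 CPM in high-score and 249.9 CPM in low-score cells of the pool. Within lines it was at -0.34, -0.70 and -0.52 on the log2 scale, lower each time. IFI6, also an interferon-induced gene, had 0.76 in the pool and -0.54, -1.26 and -0.45 within lines, and IFITM1 had 0.50 and -0.60, -0.80 and -0.32. LCN2 (lipocalin), a secreted iron-binding protein, was at 7.39, 154 and 2.44 CPM in high-score cells and at 25.4, 592 and 13.3 CPM in low-score cells of the lines, and had 0.33 in the pool. PMAIP1 (NOXA), a pro-apoptotic BCL2 family member, went the other way, with -0.40 in the pool and 0.44, 0.80 and 0.97 within lines.

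These genes differ in level between lines, and the lines differ in their share of high-score cells. The RARRES2 line, with 74.8% of its cells in the high-score group, had most LCN2. In that line the low-score group holds 55 cells.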
